A study of Sus scrofa with 8 samples.

Results

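The SLC25 family, the mitochondrial carriers, was followed through the differentiation of cultured pig muscle cells. Its members were taken as every row of the deposited gene table whose symbol starts with SLC25A. There were 37 such genes among 25285, and no symbol was repeated. RNA was sequenced from primary skeletal muscle cells of LYD pigs (a strain name that the labels do not spell out), grown in vitro. The 4 groups were undifferentiated female, undifferentiated male, differentiated female and differentiated male cultures, with 2 libraries each. No treatment, genotype or age is given, and no label says whether replicates came from separate animals, so the p-values measure the spread between these libraries only. Values are FPKM, fragment counts scaled to transcript length and to the mapped total, and values listed by state always stand in the order female replicate 1, female replicate 2, male replicate 1, male replicate 2.

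SLC25 proteins sit mostly in the inner mitochondrial membrane, where each exchanges or carries a small set of solutes between the cytosol and the matrix. The ADP/ATP carriers export the ATP made by oxidative phosphorylation and bring ADP back, the phosphate carrier supplies the phosphate for that synthesis, and other members carry amino acids, carboxylates, nucleotides, cofactors, iron or acylcarnitines. Skeletal muscle is known for a muscle form of the ADP/ATP carrier, SLC25A4, while SLC25A5 is known as the form of dividing cells.

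State markers followed the labels of state, and the labels of sex were not checked. ACTA1, skeletal muscle actin, was at 0.650 ± 0.420 FPKM in undifferentiated and 4520 ± 638 FPKM in differentiated libraries (SD, n = 4), and MKI67, a proliferation marker, at 33.0 ± 8.37 and 4.48 ± 2.77 FPKM. Read depth is unknown, but the spacing of low values put the relative depth between 1 and 2.27, with all 4 undifferentiated libraries at 1.66 or more and differentiated ones at 1.64 or less. Differentiated male replicate 1 kept the highest MKI67 of its state, at 8.57 against 2.57 to 3.68 FPKM, and it was the highest differentiated library for 12 and the lowest for 8 of the 31 carriers that could be tested. Markers of other cells also moved with the state. Of 6 tested fibroblast markers 3 rose, with a summed level of 106 to 321 FPKM in undifferentiated and 431 to 1130.4 FPKM in differentiated libraries. The FAP call among them (adjusted p = 0.0374) was lost under 6 of 14 alternatives (0.0195 to 0.104 over all), and 6 markers rose without differentiated male replicate 2. All 4 tested smooth muscle and pericyte markers rose (sums of 17.5 to 40.1 and 1020.3 to 1220.2 FPKM). ACTA2 made up 1091 ± 85.0 FPKM of the latter on average, and MYH11, a defining gene of smooth muscle, averaged 0.0335 and 0.0469 FPKM. The call of PDGFRB (adjusted p = 0.0431), a pericyte gene, was lost under 8 of 16 alternatives (0.00558 to 0.125 over all). Among all tested genes 18.0% rose. Adipocyte (0 and 0.193 to 1.69 FPKM) and endothelial sums (2.25 to 6.31 and 2.56 to 7.53 FPKM) were low in both states. The immune sum was 12.06 to 17.1 and 3.17 to 5.40 FPKM, mostly CD14 before differentiation, with PTPRC, the defining leukocyte gene, at 0.00833 and 0.0750 FPKM on average, and the Schwann sum was 4.30 to 7.21 and 2.34 to 3.68 FPKM. The part of these cells in the changes below was not tested. In such bulk cultures fewer cells of a type and less RNA per cell cannot be told apart.

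Most carriers that changed were lower in differentiated cells, and the largest rise and the largest falls were all ADP/ATP carriers. The filter kept genes averaging 1 FPKM or more, which were tested with limma on log2(FPKM + 1), and an adjusted p under 0.05 (Benjamini-Hochberg over all 12963 tested genes) was called. Of the 37 carriers, 31 were tested. SLC25A4 and SLC25A20 rose, 14 fell and 15 did not pass. Rises were 6.45% of the tested carriers against 18.0% of all tested genes, falls 45.2% against 31.9%, and calls in either direction 51.6% against 50.0%. The median log2 fold change of the tested carriers was -0.51, beside -0.18 for all tested genes. A negative log2 fold change was found for 21 of the 31, or 67.7%, against 59.8% of all genes.

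**Figure D1:**
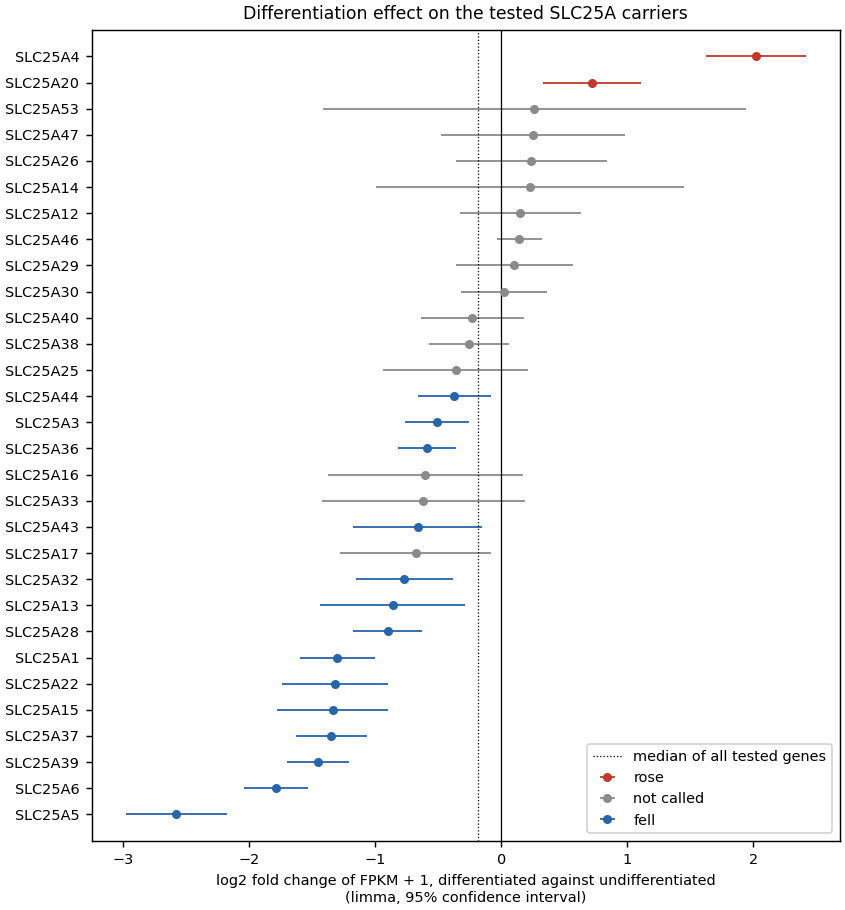
Log2 fold change of FPKM + 1 between differentiated and undifferentiated cells for 30 of the 31 tested carriers, with limma's 95% confidence interval; red genes rose, blue genes fell, grey genes did not pass, and the dotted line is the median of all tested genes. SLC25A4 stands apart at the top (2.02), and SLC25A5 (-2.58) and SLC25A6 (-1.79) at the bottom.

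The balance of rises and falls moved with the scaling of the libraries. Median-ratio scaling raised the median of all genes by 0.20 and that of the carriers by 0.17 on the log2 scale. Under it 3 of the 31 tested carriers rose and 10 fell, beside 24.8% rises and 22.5% falls among all tested genes. Falls were 76.9% of the called carriers in place of 87.5%, and 47.6% of all called genes in place of 63.9%. Quantile normalization gave 3 rises and 11 falls, beside 20.8% and 25.5% of all genes. SLC25A3, SLC25A13 and SLC25A44 were not called under either of these, SLC25A43 was not called under median-ratio scaling, and the additional rise was SLC25A46.

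The libraries of the states did not overlap for 16 of the 31 carriers, or 51.6%, against 47.3% of all tested genes. In 2 of them (6.45%, against 17.1% of all genes) the differentiated libraries were all higher, and in 14 (45.2%, against 30.2%) all lower. SLC25A20 and SLC25A43 were called although their libraries overlapped, and SLC25A46 and SLC25A17 were separated but did not pass.

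**Figure D2:**
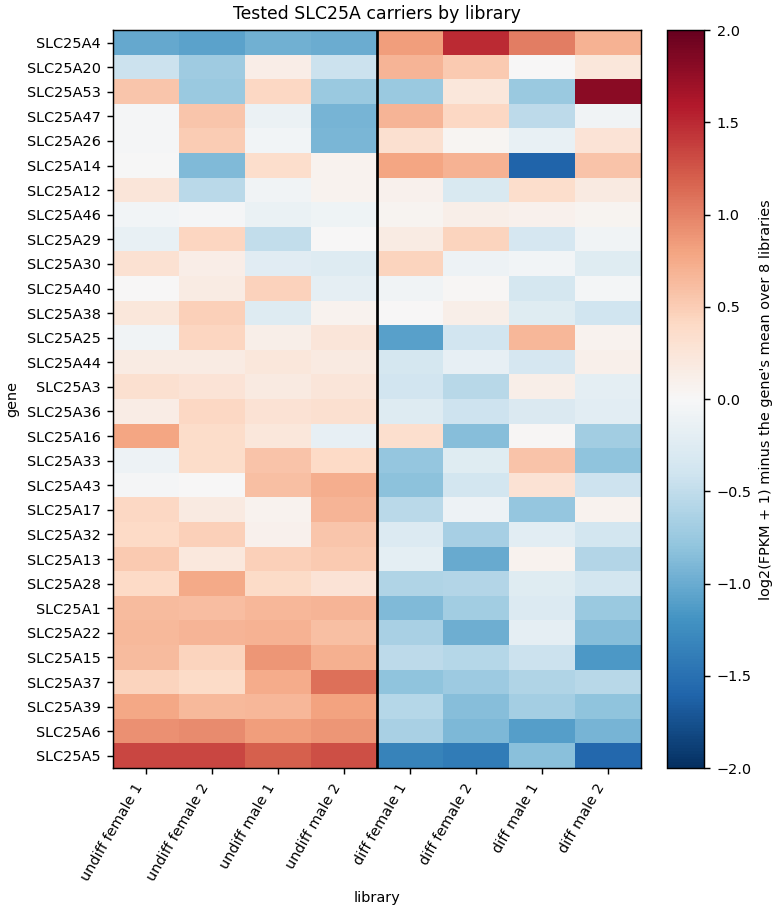
Level of 30 of the 31 tested carriers in each library, as log2(FPKM + 1) minus the gene's mean over the 8 libraries (red higher, blue lower; the scale ends at 2 in each direction), with genes ordered by fold change. The upper row, SLC25A4, and the lower block from SLC25A28 to SLC25A5 change color at the line between the states in every library, as do SLC25A46, SLC25A36 and SLC25A32, while the other rows are mixed.

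The ADP/ATP carriers changed their makeup. SLC25A4 (ENSSSCG00000015790, chromosome 15, 52922448 to 52926945), the form of heart and skeletal muscle, was at 39.1, 37.9, 40.7 and 40.2 FPKM before differentiation and at 145, 227, 164 and 131 FPKM after it. The states did not overlap, and the spread was wider after differentiation. The mean rose 4.22-fold, from 39.5 ± 1.23 to 167 ± 42.5 FPKM (SD, n = 4), with a log2 fold change of 2.02 ± 0.162 SE (limma adjusted p = 0.000288).

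SLC25A5 (ENSSSCG00000012623, chromosome X, 113743301 to 113746206), the ADP/ATP carrier of proliferating cells, was at 195, 196, 178 and 190.2 FPKM and then at 29.9, 28.6, 42.6 and 25.3 FPKM. Every differentiated library lay far below every undifferentiated one, and male replicate 1 was the highest of them. The mean fell from 190 ± 8.26 to 31.6 ± 7.59 FPKM (SD, n = 4; log2 -2.58 ± 0.164 SE, limma adjusted p = 0.000129), and was 6.01 times as high before differentiation.

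SLC25A6 (ENSSSCG00000026631, scaffold GL896347.1, 4277 to 5162), a broadly expressed form, was at 1949, 1987, 1851 and 1901 FPKM and then at 660.2, 554, 481 and 545 FPKM. It had the highest mean of the family in both states, although SLC25A3 lay above it in differentiated male replicate 1, where SLC25A6 was at its lowest. Its mean fell from 1922 ± 58.7 to 560.2 ± 74.1 FPKM (SD, n = 4; log2 -1.79 ± 0.104 SE, limma adjusted p = 9.53e-05). Its gene model spans only 886 bp on a scaffold, against 4498 bp for SLC25A4 and 2906 bp for SLC25A5, and the coding sequences of these paralogues are alike. Its level relative to the others therefore rests on that model and on how shared reads were assigned, which is not given in the sources used here. SLC25A31 (ENSSSCG00000009078, chromosome 8, 103959376 to 103983815), the form of the male germ line, was listed at 0 in all 8 libraries.

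The ratio of SLC25A4 to SLC25A5 went from 0.194 to 0.229 in undifferentiated libraries to 3.86 to 7.95 in differentiated ones, so that the order of these carriers reversed in all 4 cultures of each state. The log2 ratio, with 1 FPKM added to both, changed by 4.60, from -2.24 ± 0.103 to 2.36 ± 0.429 (SD, n = 4). The ratio of SLC25A4 to SLC25A6 went from 0.0191 to 0.0220 to between 0.219 and 0.410, a change of the log2 ratio of 3.81, from -5.57 ± 0.0878 to -1.76 ± 0.424. The exact two-sided permutation test over libraries gave p = 0.0286 for each of these 2 pairs, adjusted p = 0.0286, which is the smallest that 4 against 4 libraries allow. With libraries paired by sex and replicate number, all 4 differences had the same sign, and the exact sign-flip permutation gave p = 0.125, the smallest possible with 4 pairs.

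As a share of the summed FPKM of the 3 genes, SLC25A4 made up 1.71% to 1.97% in undifferentiated and 17.3% to 28.1% in differentiated libraries. SLC25A5 went from between 8.60% and 8.95% to between 3.53% and 6.19%, and SLC25A6 from between 89.2% and 89.5% to between 68.4% and 79.1%. The summed level itself was 2151 ± 65.3 FPKM before and 759 ± 74.3 FPKM after differentiation (SD, n = 4), with no overlap. That smaller total rests on SLC25A6 and its short gene model. SLC25A4 and SLC25A5 alone summed to 219 to 235 FPKM before and 156 to 256 FPKM after differentiation, and these ranges overlapped.

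**Figure D3:**
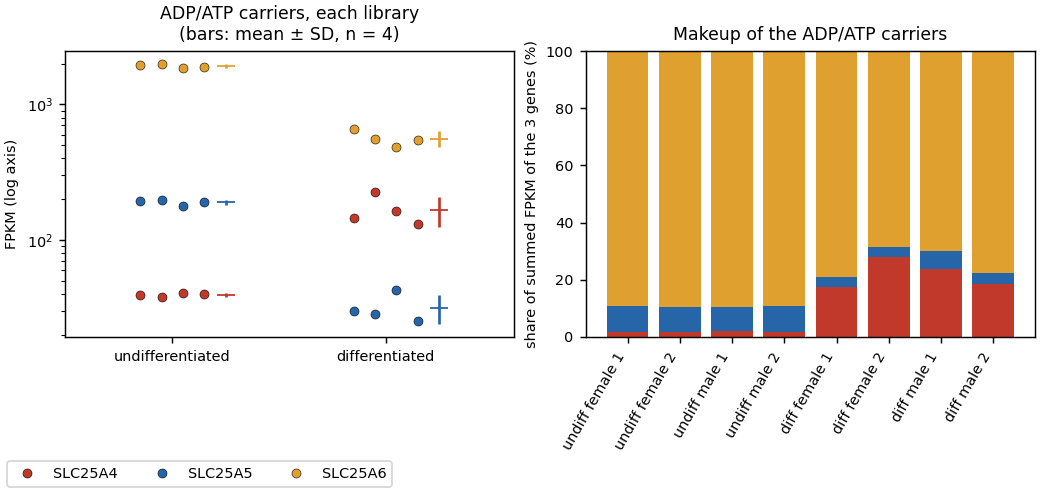
Left, FPKM of the 3 detected ADP/ATP carriers in each library on a log axis, with the mean and SD of 4 libraries beside the points; right, the share of each gene in their summed FPKM per library, with red for SLC25A4, blue for SLC25A5 and orange for SLC25A6. SLC25A4 crosses above SLC25A5 in all 4 differentiated libraries, and its share goes from under 2% to at least 17.3%.

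The phosphate carrier SLC25A3 (ENSSSCG00000000886, chromosome 5, 89607357 to 89615244), which brings in the phosphate used to make ATP, had the second-highest level of the family in both states. It was at 665, 649.7, 604 and 633 FPKM and then at 410.5, 364, 579 and 466 FPKM, with differentiated male replicate 1 close to the undifferentiated libraries. It fell from 638 ± 26.1 to 455 ± 92.6 FPKM (SD, n = 4; log2 -0.51, limma adjusted p = 0.00896), but not once libraries were rescaled by median ratios (adjusted p = 0.0647) or by quantiles (adjusted p = 0.192, with a range of 0.00329 to 0.192 over all alternatives). As a ratio to the summed FPKM of the ADP/ATP carriers, SLC25A3 went from between 0.292 and 0.305 to between 0.450 and 0.841. This ratio too rests on SLC25A6 and its short gene model. SLC25A25, an ATP-Mg/phosphate carrier, did not pass (log2 -0.36, 95% interval -0.93 to 0.21).

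The whole family summed to 3202 ± 91.5 FPKM in undifferentiated and 1486 ± 58.6 FPKM in differentiated libraries (SD, n = 4). ADP/ATP carriers held 66.9% to 67.7% of that sum before and 44.5% to 56.4% after differentiation. SLC25A6 alone held 59.7% to 60.6% before and 31.1% to 43.3% after, so the family sum and these shares rest on its short gene model. The carriers other than SLC25A3 to SLC25A6 summed to 413 ± 4.48 and 272 ± 9.00 FPKM. In undifferentiated cells the order ran SLC25A6, SLC25A3, SLC25A5, each separated from the next in every library, then SLC25A1 and SLC25A39, which overlapped, and SLC25A4, which lay below them and overlapped SLC25A36. In differentiated cells SLC25A6 and SLC25A3 overlapped, SLC25A4 came next and was separated from its neighbours on either side, and SLC25A5 followed and overlapped SLC25A46. Among the 30 neighbouring pairs in the order of the tested carriers, 25 overlapped in undifferentiated and 28 in differentiated libraries.

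The carnitine carrier SLC25A20 (ENSSSCG00000011366, chromosome 13, 34777399 to 34804791), which brings acylcarnitines into the matrix for fatty acid oxidation, was the other member that rose. It was at 7.06, 5.58, 10.9 and 7.00 FPKM in undifferentiated and 16.2, 14.5, 9.92 and 11.7 FPKM in differentiated libraries. The female cultures were well separated, while in males 1 differentiated library lay below the higher undifferentiated one. The mean went from 7.62 ± 2.26 to 13.1 ± 2.83 FPKM (SD, n = 4; log2 0.72 ± 0.161 SE, limma adjusted p = 0.0119), and the call held under all 16 alternatives (adjusted p = 0.00374 to 0.0422). The log2 fold change was 1.17 in females and 0.27 in males. The difference of 0.89 (95% interval 0.11 to 1.68, limma adjusted p = 0.808) did not pass.

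Enzymes on either side of that carrier were measured as well. CPT1B, the muscle enzyme that makes acylcarnitines at the outer membrane, read 0 FPKM in 3 of the undifferentiated cultures, 0.131 FPKM in undifferentiated male replicate 2, and 37.0, 38.8, 20.1 and 22.8 FPKM after differentiation. CRAT, which exchanges short acyl groups between carnitine and coenzyme A, rose from 46.6 ± 5.46 to 68.7 ± 8.51 FPKM (SD, n = 4; log2 0.55, limma adjusted p = 0.00278). CPT2, which frees the acyl group in the matrix, did not pass (log2 -0.15), nor did CPT1A, the liver form (log2 0.57, limma adjusted p = 0.115). For CPT1B and CRAT as for SLC25A20, both differentiated female libraries lay above both differentiated male ones. For CPT2 both lay below, and for CPT1A the sexes overlapped. CRAT was already higher in females before differentiation, at 52.1 and 50.2 FPKM against 40.4 and 43.9 FPKM in males. Its log2 fold change was 0.55 in females and 0.55 in males. The difference between the CPT1B changes in females and males did not pass (log2 0.88, limma adjusted p = 0.804). How many of all genes separate the sexes in this way was not counted.

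Among the 7 carriers of amino acids and of the malate-aspartate shuttle 4 fell and 3 did not pass, where 31.9% of all tested genes fell. SLC25A15 (ENSSSCG00000009373, chromosome 11, 15797583 to 15843547), the ornithine carrier, was at 9.59, 8.30, 11.6 and 10.18 FPKM and then at 3.74, 3.60, 4.09 and 2.08 FPKM. It fell from 9.93 ± 1.38 to 3.38 ± 0.891 FPKM (SD, n = 4; log2 -1.34 ± 0.181 SE, limma adjusted p = 0.00175). SLC25A22 (ENSSSCG00000012844, chromosome 2, 177464 to 183099), a glutamate carrier, was at 13.5, 13.8, 14.0 and 13.0 FPKM and then at 4.90, 3.72, 7.20 and 4.15 FPKM, again with differentiated male replicate 1 the highest of its state. Its mean fell from 13.6 ± 0.430 to 4.99 ± 1.55 FPKM (SD, n = 4; log2 -1.32 ± 0.173 SE, limma adjusted p = 0.00158).

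The aspartate/glutamate carriers, which drive the malate-aspartate shuttle that moves reducing equivalents into mitochondria, are SLC25A12, the form of muscle and brain, and SLC25A13, known from liver. SLC25A13 (ENSSSCG00000015336, chromosome 9, 83194775 to 83350961) was at 13.0, 10.3, 12.6 and 13.0 FPKM and then at 7.58, 3.86, 9.29 and 5.51 FPKM. It fell from 12.3 ± 1.30 to 6.56 ± 2.37 FPKM (SD, n = 4; log2 -0.86 ± 0.236 SE, limma adjusted p = 0.0249). That call was lost with scaling by median ratios (adjusted p = 0.0553), by quantiles (0.0513) and without 5 of the libraries taken singly, namely undifferentiated female replicate 1, both undifferentiated male libraries, differentiated female replicate 2 and differentiated male replicate 2 (adjusted p = 0.0568 to 0.0820; 0.0133 to 0.0820 over all alternatives). SLC25A12 was at 20.7, 11.6, 16.4 and 18.1 FPKM and then at 18.4, 13.8, 22.3 and 19.7 FPKM, overlapping ranges (log2 0.15, 95% interval -0.33 to 0.63). The log2 ratio of SLC25A12 to SLC25A13 went from between 0.15 and 0.63 to between 1.18 and 1.67. The exact permutation test gave p = 0.0286 for this ratio, and adjusted p = 0.0714 over 5 pairs of related carriers chosen after their values were seen, so the shift did not pass.

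The branched-chain amino acid carrier SLC25A44 was at 19.1 ± 0.411 FPKM before and 14.7 ± 2.30 FPKM after differentiation (SD, n = 4; log2 -0.37, limma adjusted p = 0.0418). Its call was among the least stable, since it ended with libraries paired by sex and replicate number (adjusted p = 0.0691), without the filter on low values (0.0627), under median-ratio scaling (0.354), under quantile normalization (0.268) and when any 1 library other than differentiated male replicate 2 was left out (0.0632 to 0.111; 0.0146 to 0.354 over all alternatives). SLC25A29, a carrier of basic amino acids (log2 0.10, 95% interval -0.36 to 0.57), and SLC25A38, a glycine carrier needed for heme synthesis (log2 -0.26, 95% interval -0.58 to 0.07), did not pass.

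The citrate carrier SLC25A1 (ENSSSCG00000010116, chromosome 14, 54541564 to 54544455), which exports citrate for fatty acid and sterol synthesis, was at 63.7, 63.3, 64.9 and 65.8 FPKM in undifferentiated libraries, an SD of 1.16 FPKM. It was at 21.6, 24.6, 33.5 and 24.0 FPKM in differentiated ones, with male replicate 1 the highest. The mean fell from 64.4 ± 1.16 to 26.0 ± 5.21 FPKM (SD, n = 4; log2 -1.30 ± 0.122 SE, limma adjusted p = 0.00049). The other 3 carboxylate carriers by name, SLC25A21, SLC25A34 and SLC25A35, were under the filter.

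Both iron carriers fell, as did 31.9% of all tested genes. SLC25A37 (mitoferrin-1, ENSSSCG00000009641, chromosome 14, 8517483 to 8695957), known from red cell precursors, was at 8.73, 8.31, 11.0 and 14.4 FPKM and then at 3.08, 3.30, 3.71 and 3.86 FPKM (log2 -1.35 ± 0.117 SE, limma adjusted p = 0.000377). SLC25A28 (mitoferrin-2, ENSSSCG00000010539, chromosome 14, 120241402 to 120251848), the form of other tissues, was at 13.1, 17.1, 13.0 and 12.0 FPKM and then at 6.06, 6.18, 8.09 and 7.37 FPKM (log2 -0.90 ± 0.112 SE, limma adjusted p = 0.00128). For both genes the states were separated, and the difference between the changes of the 2 genes did not pass (change of the log2 ratio 0.45, exact permutation p = 0.143, adjusted p = 0.238 over the 5 pairs).

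Of the 2 glutathione carriers, SLC25A39 fell and SLC25A40 did not pass, where 31.9% of all tested genes fell. SLC25A39 (ENSSSCG00000030167, chromosome 12, 19275070 to 19278295), which imports glutathione into mitochondria, was at 63.6, 58.4, 59.0 and 65.0 FPKM and then at 24.5, 19.8, 22.4 and 20.6 FPKM. It fell from 61.5 ± 3.31 to 21.9 ± 2.10 FPKM (SD, n = 4; log2 -1.45 ± 0.101 SE, limma adjusted p = 0.000177). Its paralogue SLC25A40 was at 11.6 ± 2.39 and 9.65 ± 1.16 FPKM (log2 -0.23, 95% interval -0.63 to 0.18). The log2 ratio of SLC25A39 to SLC25A40 went from between 1.93 and 2.70 to between 0.84 and 1.39, which gave p = 0.0286 by the exact permutation test and adjusted p = 0.0714 over the 5 pairs.

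Of the 7 carriers of nucleotides and cofactors 2 fell and 5 did not pass, where 31.9% of all tested genes fell. SLC25A32 (ENSSSCG00000006049, chromosome 4, 36477469 to 36499715), a carrier for folate and FAD, was at 7.89, 8.38, 6.15 and 8.90 FPKM and then at 4.54, 3.22, 4.80 and 4.18 FPKM, without overlap. It fell from 7.83 ± 1.20 to 4.19 ± 0.691 FPKM (SD, n = 4; log2 -0.77 ± 0.158 SE, limma adjusted p = 0.00879). SLC25A36, a pyrimidine nucleotide carrier, fell from 38.8 ± 2.95 to 25.4 ± 1.59 FPKM (SD, n = 4; log2 -0.59, limma adjusted p = 0.00329). Its relative SLC25A33 was at 8.31 ± 1.73 and 5.49 ± 3.19 FPKM (log2 -0.62), with 10.1 FPKM in differentiated male replicate 1 against 3.23 to 5.29 FPKM in the other 3, and it was called without that library (adjusted p = 0.0188; 0.0188 to 0.353 over all alternatives). The log2 ratio of SLC25A36 to SLC25A33 changed by 0.03 (exact permutation p = 0.943, adjusted p = 0.943).

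SLC25A17, a peroxisomal carrier of coenzyme A and related cofactors, was at 21.5 ± 4.36 and 13.3 ± 3.76 FPKM with no overlap, and just missed the threshold (log2 -0.68, limma adjusted p = 0.0616). It was called with libraries paired by sex and replicate number (adjusted p = 0.0263), among genes spanning at least 300 bp (0.0448), with 1 mean per state (0.0298) and without differentiated male replicate 2 (0.0259; 0.0259 to 0.194 over all alternatives). SLC25A16, linked to coenzyme A, did not pass (log2 -0.60) but was called without differentiated female replicate 1 (adjusted p = 0.0404; 0.0404 to 0.379 over all alternatives). SLC25A26, the carrier of S-adenosylmethionine (log2 0.24, 95% interval -0.36 to 0.84), did not pass.

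SLC25A30 and SLC25A14, relatives of the uncoupling proteins, did not pass. SLC25A30 was at 19.8 ± 4.06 and 20.2 ± 4.73 FPKM, the smallest change of the 31 (log2 0.02, 95% interval -0.32 to 0.37). SLC25A14 was at 0.648 to 2.90 FPKM before differentiation and at 4.27, 3.93, 0 and 3.53 FPKM after it, being listed at 0 in differentiated male replicate 1. The log2 ratio of SLC25A30 to SLC25A14 changed by -0.21 (exact permutation p = 0.743, adjusted p = 0.929).

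Among the carriers whose substrate is less settled, SLC25A46, an outer membrane protein of mitochondrial shape, had the smallest standard error of the 4 that were tested. It was at 26.0 ± 0.870 FPKM before and 28.8 ± 0.666 FPKM after differentiation, separated in all libraries (log2 0.15 ± 0.0724 SE, limma adjusted p = 0.144), and was called under median-ratio scaling (adjusted p = 0.0115) and quantile normalization (0.0216; 0.0115 to 0.265 over all alternatives). SLC25A43 was at 3.97 ± 1.34 and 2.17 ± 1.07 FPKM (SD, n = 4; log2 -0.66, limma adjusted p = 0.0403). Its call ended with paired libraries (adjusted p = 0.0668), without the filter (0.0593), under median-ratio scaling (0.111), with 1 mean per state (0.0828) and without any single one of the undifferentiated libraries, differentiated female replicate 1 or differentiated male replicate 2 (adjusted p = 0.0782 to 0.108; 0.0167 to 0.111 over all alternatives). SLC25A47 (log2 0.25) and SLC25A53 (log2 0.26) were near the filter, at most at 2.05 and 4.83 FPKM in any library, and did not pass.

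The 6 carriers under the filter were SLC25A31, SLC25A21, SLC25A34, SLC25A35, SLC25A45 and SLC25A48. SLC25A31 was at 0 throughout, and the highest level of the others in any library was 1.28 FPKM for SLC25A21, 1.58 for SLC25A34, 1.22 for SLC25A35, 0.791 for SLC25A45 and 0.683 for SLC25A48. SLC25A34 was at 0.296, 0.0980, 0.226 and 0 FPKM in undifferentiated and 1.58, 0.524, 0.817 and 0.684 FPKM in differentiated libraries, without overlap, and without the filter it was called higher beside SLC25A4 and SLC25A20 (log2 0.70, limma adjusted p = 0.0386). An identifier table names the SLC25A21 row PAX9, so its identity is uncertain.

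Calls were counted by level as well. Of the 9 carriers with a mean of at least 20 FPKM 1 rose and 6 fell, where 20.5% and 39.3% of all genes of that level did. Between 5 and 20 FPKM 1 of 16 rose and 7 fell, beside 15.3% and 35.1% of all genes. Below 5 FPKM 0 of 6 rose and 1 fell, beside 18.8% and 17.8% of all genes. The members are spread over 14 chromosomes and 2 scaffolds. SLC25A29 and SLC25A47 lie 11969 bp apart on chromosome 7 and SLC25A5 and SLC25A43 12367 bp apart on chromosome X, while the next-nearest pair, SLC25A33 and SLC25A34, is 5222411 bp apart. Of these neighbours SLC25A5 and SLC25A43 were called lower, where 31.9% of all tested genes fell, and SLC25A29 and SLC25A47 did not pass. The SLC25A43 call was unstable, as given above.

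The carriers showed no called difference between female and male cultures. Averaged over the states, 0 of the 31 passed (limma), where 0.0849% of all tested genes did. At an unadjusted p under 0.05 there were 5 of the 31, or 16.1%, against 9.73% of all genes. These were SLC25A38, SLC25A30 and SLC25A47, higher in females by log2 0.42, 0.40 and 0.82, and SLC25A43 and SLC25A37, lower in females by log2 -0.60 and -0.35. When female and male fold changes were set against each other, 0 of 31 passed (0.0231% of all genes) and only SLC25A20 had an unadjusted p under 0.05, 3.23% of the carriers against 6.03% of all genes. The sign of change was the same in both sexes for 26 of the 31 tested carriers. It was the same for all 16 called ones, but calls were made on the average of the sexes, which favors equal signs. For SLC25A4 the log2 fold change was 2.21 in females and 1.83 in males, for SLC25A5 -2.70 and -2.45, and for SLC25A6 -1.70 and -1.87.

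**Figure D4:**
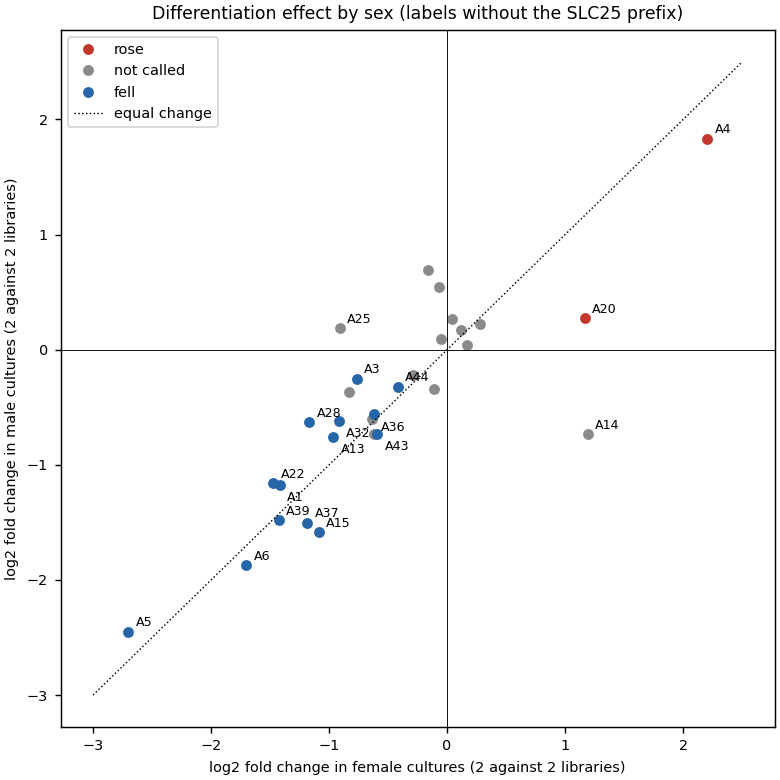
Log2 fold change with differentiation in female cultures (horizontal) and male cultures (vertical), each from 2 against 2 libraries, for 30 of the 31 tested carriers; colors give the call averaged over the sexes and the dotted line marks equal change. The called genes lie in the quadrants of equal sign, which calling on the average of the sexes favors. SLC25A20 is the farthest of them from the line (1.17 in females, 0.27 in males).

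Several family members stand in the table under other names and were not counted above. UCP2, an uncoupling protein relative, was at 7.02, 8.27, 16.3 and 7.93 FPKM and rose to 52.3, 64.7, 36.7 and 50.3 FPKM (log2 2.30 ± 0.237 SE, limma adjusted p = 0.000664), beside 2.02 for SLC25A4. The difference between these changes was not tested. Its neighbour UCP3, the muscle form, was under the filter at 0 to 0.163 and 0.231 to 1.41 FPKM. SCAMC-1, an ATP-Mg/phosphate carrier that the identifier table names SLC25A24, fell from 79.6 ± 9.36 to 42.7 ± 11.2 FPKM (SD, n = 4; log2 -0.91, limma adjusted p = 0.00238), and SCAMC-3, or SLC25A23, did not pass (log2 0.08). A row without a symbol that the identifier table names SLC25A27 fell from 5.23 ± 1.07 to 1.90 ± 1.29 FPKM (SD, n = 4; log2 -1.20, limma adjusted p = 0.0121). MTCH2 did not pass (log2 -0.12), and the call of MTCH1 (log2 -0.32, adjusted p = 0.0352) was lost with scaling by median ratios (0.445), by quantiles (0.107) and without any 1 library other than undifferentiated male replicate 2 (0.0190 to 0.445 over all alternatives). SCAMC-1, SCAMC-3 and SLC25A27 were added after the table was seen.

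The route by which carriers reach the inner membrane did not move in a single direction. It runs through the outer membrane receptor TOMM70, small chaperones between the membranes and the TIMM22 complex. Of 11 tested rows 2 rose and 4 fell, beside 18.0% and 31.9% of all tested genes, with a median log2 fold change of 0.01. Under median-ratio scaling 4 rose and 3 fell, beside 24.8% and 22.5% of all tested genes. TIMM8B, a small chaperone, rose from 225 ± 20.8 to 454 ± 28.4 FPKM (SD, n = 4; log2 1.01, limma adjusted p = 0.000489). AGK, a lipid kinase that is also a subunit of the TIMM22 complex, fell from 12.7 ± 1.69 to 4.99 ± 0.642 FPKM (log2 -1.19, limma adjusted p = 0.000687), and TIMM8A fell as well (log2 -0.93). TIMM22 itself did not pass (log2 -0.12). Nor did TOMM70A, the more abundant of 2 receptor rows, at 138 ± 34.8 and 184 ± 36.8 FPKM with overlap (log2 0.43, limma adjusted p = 0.0621). TOMM70 and TOMM70A both count among the 11. TOMM22, a receptor subunit, was called lower (adjusted p = 0.0106) but not with scaling by median ratios (0.230) or quantiles (0.0712; 0.00655 to 0.230 over all alternatives). TOMM70 and TOMM70A, 2 names of the receptor, stood in separate rows, and the call of TOMM70 (log2 0.34, adjusted p = 0.0458) ended with paired libraries (0.0845), without the filter (0.0585) and without any 1 library other than differentiated female replicate 1 (0.0140 to 0.124 over all alternatives).

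Other transport proteins of the mitochondrial membranes gave 2 rises and 8 falls among 22 tested, beside 18.0% and 31.9% of all genes, with a median of -0.27. Under median-ratio scaling there were 5 rises and 6 falls, beside 24.8% and 22.5% of all genes. SFXN3, a sideroflexin, fell from 56.3 ± 7.71 to 17.5 ± 5.49 FPKM (SD, n = 4; log2 -1.66, limma adjusted p = 0.00207), as did TSPO, a cholesterol-binding protein of the outer membrane (log2 -1.52). SFXN4, another sideroflexin (log2 1.00), and MICU2, a regulator of the calcium uniporter (log2 0.40), rose. The calls of SLC8B1 (adjusted p = 0.0470; 0.0288 to 0.126 over all alternatives) and ABCB10 (0.0410; 0.0271 to 0.202), both lower, were each lost under 10 alternatives.

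Of 9 enzymes of the malate-aspartate shuttle and carnitine system 3 rose and 1 fell (median 0.50), beside 18.0% and 31.9% of all genes. Under median-ratio scaling 4 rose and 0 fell, beside 24.8% and 22.5%. The 3 rises were CPT1B, CRAT and GPD1, and none of these is an enzyme of the malate-aspartate shuttle. GPD1, the cytosolic glycerol phosphate dehydrogenase, rose from 1.47 ± 0.572 to 41.2 ± 12.9 FPKM (SD, n = 4; log2 4.07, limma adjusted p = 4.56e-05). Of the shuttle enzymes GOT1 (log2 -0.03), MDH1 (-0.23) and MDH2 (0.50) did not pass. GOT2, the mitochondrial aspartate aminotransferase, fell (log2 -0.52, adjusted p = 0.00689), except under median-ratio scaling (0.067; 0.00464 to 0.067 over all alternatives).

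Among 5 enzymes of energy transfer and one-carbon metabolism 1 rose and 3 fell, beside the same 18.0% and 31.9%, with a median of -1.58. PCK2, the mitochondrial PEP carboxykinase, fell from 39.8 ± 8.74 to 5.94 ± 5.05 FPKM (SD, n = 4; log2 -2.80, limma adjusted p = 0.00113), MTHFD1L fell with a log2 fold change of -1.99, and AK3, an adenylate kinase of the matrix, rose (log2 0.70). Among 12 regulators of mitochondrial biogenesis 2 rose and 2 fell, again beside 18.0% and 31.9%, with a median of -0.05. PPARGC1B, a coactivator, rose from 4.29 ± 0.576 to 9.02 ± 1.08 FPKM (SD, n = 4; log2 0.92, limma adjusted p = 0.00276). MYC fell from 161 ± 30.1 to 45.3 ± 7.45 FPKM (log2 -1.80, limma adjusted p = 0.000479), and PPRC1, a coactivator related to PPARGC1B, fell as well (log2 -0.80). The call of ESRRA (log2 0.33, adjusted p = 0.0471) ended under 12 of 16 alternatives, paired libraries among them (0.0602; 0.0121 to 0.131 over all).

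**Figure D5:**
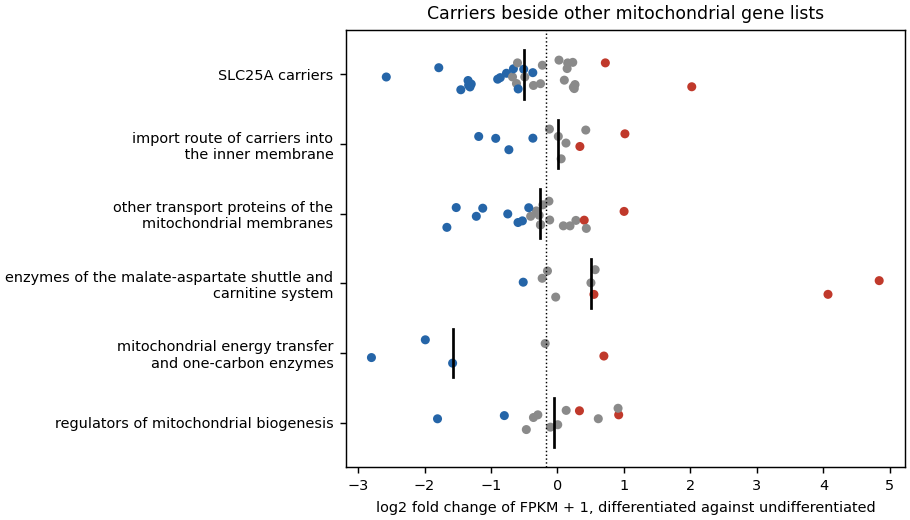
Log2 fold change of FPKM + 1 for the tested members of the carrier family and of 5 other mitochondrial gene lists, with red for genes that rose, blue for genes that fell, grey for the rest, a black bar for each list's median and a dotted line for the median of all tested genes (-0.18). The carriers spread from -2.58 to 2.02 around a median of -0.51.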

How the data were processed

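RNA sequencing of 8 libraries was analysed from the deposited gene table of FPKM values. Per the submitters' processing notes, the authors used cutadapt 1.6, TopHat2 2.0.12.1 and Cufflinks 2.2.1 with the build Sscrofa10.2. Settings, read assignment and scaling totals are not given in the sources used here. The labels name a stranded kit for total RNA but list polyA RNA as the molecule. FPKM values were taken as log2(FPKM + 1), and genes averaging 1 FPKM or more were fitted with limma 3.58.1 in R 4.3.3 (1 mean per group, eBayes with trend, 4 residual and 2.09 prior degrees of freedom), with Benjamini-Hochberg adjustment over 12963 genes. The fit was tested on simulated data.

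Ratios of carriers were compared by exact permutation over libraries. Relative depth was the commonest ratio between libraries among 4303 genes of low level. Correlations of same-numbered libraries' deviations from their group means were 0.113 in females and 0.126 in males. With 2 libraries a group, both pairs of a sex share 1 value. Every pair lay above 0.1, so the numbers were treated as a possible pairing of libraries, although no label states it. The main fit and the permutation over libraries left this pairing out. It entered only the replicate block and the sign-flip permutation.

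Named in full were the ADP/ATP carriers and, among called carriers without overlap, the 10 largest rises and 10 largest falls. SLC25A3, SLC25A12, SLC25A14, SLC25A20, SLC25A34, UCP2 and CPT1B were given by library as well, a choice made after their values were seen, as was the naming of CRAT, FAP, PDGFRB, TOMM22, SLC8B1 and ABCB10. Other lists gave their 2 most risen and 2 most fallen called members. Members and lists were chosen with earlier results of these data known. Alternatives were another pseudocount, other filters, a minimum span, 2 scalings, a replicate block, 1 mean per state and leaving out each library. A planned comparison of carrier proteins was not made. The result of 1 tested carrier is not reported here singly or plotted by name, and it stays in the counts.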

Additional observations from a re-analysis of the deposited data

Results flagged for a closer look

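SLC25A13 was flagged in the undifferentiated libraries because female replicate 2, at 10.3 FPKM, stood apart from the other 3, which lay between 12.6 and 13.0 FPKM. The gap was 0.855 of the whole range. It was 1 of 62 sets of 4 libraries examined over the 31 tested carriers, and chance flags about 1 in 20 such sets.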

How the results depend on the processing

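Of 31 tested carriers, 12 of the 16 called ones kept direction and call under every alternative run, among them SLC25A4 (log2 1.86 to 2.25), SLC25A5 (-2.76 to -2.35) and SLC25A6 (-1.85 to -1.40). The calls of SLC25A3, SLC25A13, SLC25A43 and SLC25A44 ended under some, with the values given beside each. The counts of calls stayed within 1.5 times, at 2 to 3 rises and 10 to 15 falls, and no carrier was called for sex or for the difference between the sexes under any. Over the same alternatives 14.4% to 24.8% of all tested genes rose and 19.7% to 37.7% fell. Without the filter 36 carriers were tested, and with a mean of at least 5 FPKM 25 were. Under the replicate block, 2 carriers rose and 13 fell, beside 17.0% and 30.5% of all tested genes. The block ended the calls of SLC25A43 and SLC25A44 and made that of SLC25A17, and changed no other carrier's call. For the ratio of SLC25A4 to SLC25A5 and to SLC25A6 the paired changes were 4.60 and 3.81, and the exact sign-flip permutation gave p = 0.125, the smallest that 4 pairs allow. Direction changed for carriers that were never called. SLC25A14 was at -0.19 with a pseudocount of 0.1. Leaving out single libraries gave lowest and highest values of -0.31 and 0.77 for SLC25A14, -0.060 and 0.90 for SLC25A53, -0.044 and 0.35 for SLC25A12, -0.042 and 0.25 for SLC25A29, and -0.11 and 0.16 for SLC25A30. Leaving a library out leaves 1 group with 1 library, assumed to vary like the others. Summing rows of a repeated symbol gave no value, since no symbol repeats. The depth in reads is unknown, so no counting error is given, and the largest standard errors were that of SLC25A53 (0.688), which averaged 1.06 FPKM.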
